A study of Mus musculus with 18 samples.

Results

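The 8 genes Angpt1, Angpt2, Tek, Tie1, Edn1, Ece1, Ednra and Ednrb, which encode the core of the angiopoietin, Tie and endothelin pathways of blood vessels, were followed in 18 mouse kidney libraries. They were taken by symbol from the 31787 genes of the count table, and all 8 passed the filter on low counts. RNA was from whole kidney with or without unilateral ureteral obstruction (UUO, tying off 1 ureter, after which the kidney on that side becomes fibrotic). The study asked how endothelial change in the obstructed kidney relates to vessel integrity, hypoxia and tubular Myc.

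Angiopoietin-1 is made mainly by cells around vessels and activates Tie2, the receptor kinase encoded by Tek, which keeps endothelium quiet and its junctions closed. Angiopoietin-2 is made by activated endothelium and can compete with angiopoietin-1 at Tie2, while Tie1 is a relative of Tie2 that modulates its signal. Endothelin-1, from Edn1, is a peptide released from its precursor by the enzyme of Ece1. It constricts vessels through the type A receptor (Ednra) on smooth muscle and pericytes, and acts through the type B receptor (Ednrb) on endothelium and collecting duct, where it promotes nitric oxide release, salt excretion and endothelin clearance.

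Each group had 3 libraries. Twist cKO UUO kidneys carried Cdh5-CreERT2, a tamoxifen-inducible Cre of endothelial cells, with floxed Twist. Snail cKO UUO kidneys carried the same Cre with floxed Snail, and Myc cKO UUO kidneys carried GGT-Cre, active in tubular epithelium, with floxed Myc. The contralateral kidneys (unobstructed, opposite a ligated ureter) and the wild-type (WT) UUO kidneys each came from the Twist line, with 2 Cre-positive mice lacking floxed alleles and 1 Cre-negative mouse with floxed Twist. The 3 healthy kidneys were Cre-negative with floxed Twist. The strain label was C57BL6, 129sv and Balb/c mixed for the Twist line and its controls, whereas the Snail and Myc lines were labelled C57BL6 and Balb/c. Mice were 12 weeks old, or 11 to 12 weeks in the Myc line. No WT mice of the Snail or Myc lines were among the samples, so the deleted gene and the line cannot be told apart in those groups. The labels do not say which kidneys shared an animal, so the p-values rest on the variation among these libraries, which may be partly technical; libraries are numbered here in record order.

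Libraries held 52.6 to 91.3 M counts. Mitochondrial ribosomal RNA took 19.2% to 34.9% of counts in obstructed and 44.6% to 50.3% in unobstructed kidneys. Umod, a defining kidney marker, was present throughout, at 536 to 3334 CPM (counts scaled to a common library size, with TMM factors). Of the targeted genes, Twist1 was at 0.427 ± 0.151 CPM in Twist cKO UUO against 2.59 ± 1.72 in WT UUO kidneys (SD, n = 3; log2 -2.59 ± 0.49, SE, adjusted p = 0.0172). Snai1 was at 1.98 ± 0.293 CPM in Snail cKO UUO against 3.01 ± 0.549 in WT UUO (adjusted p = 0.487), and Myc at 16.5 ± 4.95 in Myc cKO UUO against 22.6 ± 1.08 in WT UUO (0.217), neither past the threshold in whole-kidney RNA. Myc cKO UUO replicate 3 and WT UUO replicate 1 were taken to stand apart, at -4.80 and 110.3 on the first principal component. For the angiopoietin, Tie and endothelin genes followed here, results that rest on them are given with and without them. Calls of marker genes and of other pathway genes are given only with them included. The other WT UUO libraries lay at 90.3 and 78.4 on that component. Healthy replicate 3 also lay away from its group, at -99.4 against -134.8 and -131.3. The 4 urothelial markers summed to 295 CPM in WT UUO replicate 1 and to 0.0610 to 54.9 CPM in all other libraries, and Adipoq, a fat marker, ranged from 0 to 18.5 CPM.

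**Figure D1:**
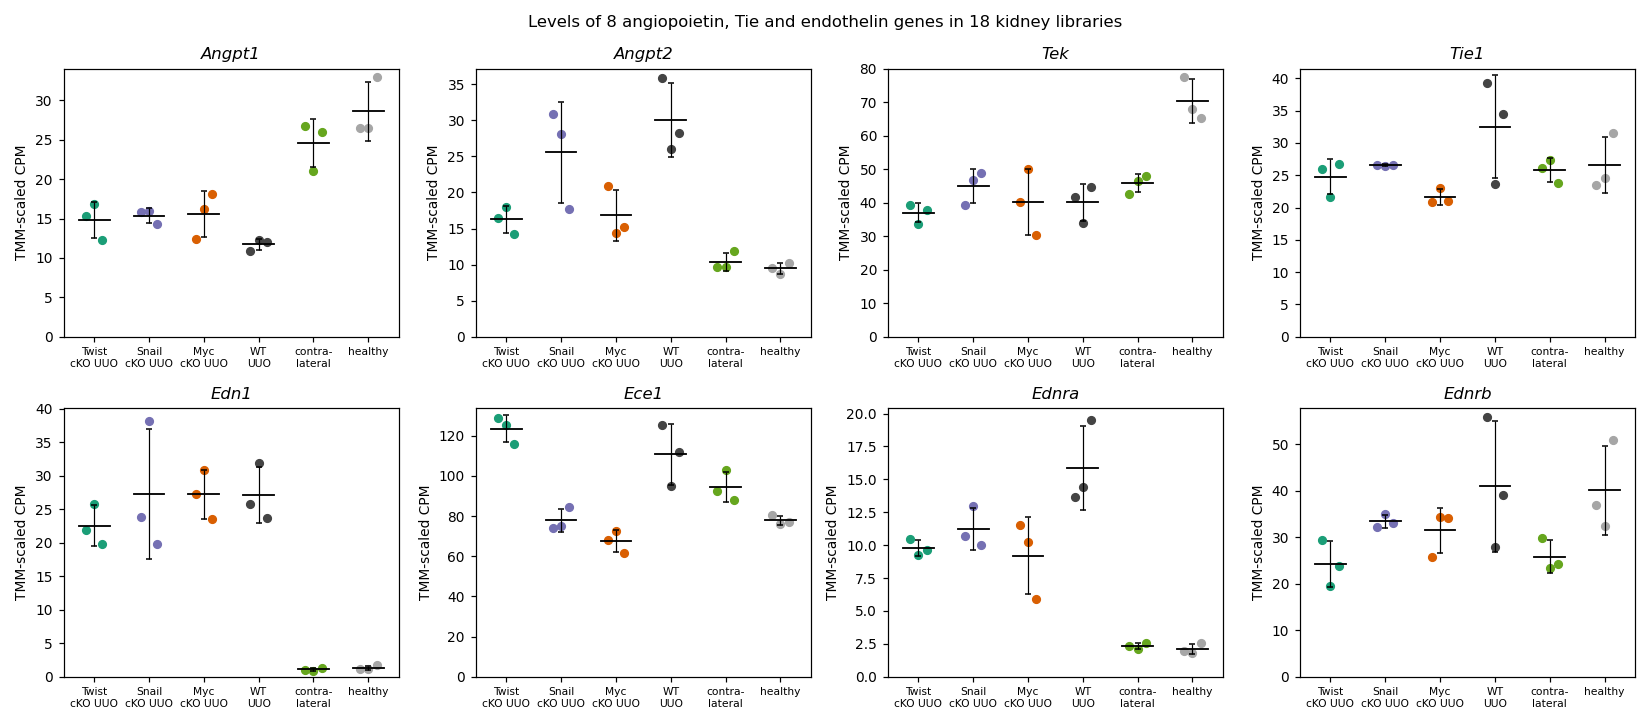
Level of each of the 8 genes in every library (points), in TMM-scaled CPM on axes that start at 0, with the group mean (long bar) and SD (error bar, n = 3). Edn1 sits between 19.8 and 38.2 CPM in all obstructed kidneys and at 1.69 CPM or less in all unobstructed ones.

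Obstruction changed both angiopoietins, in opposite directions. In WT UUO against healthy kidneys, 6 of the 8 genes passed an adjusted p of 0.05 (quasi-likelihood test of edgeR, Benjamini-Hochberg over all 21050 genes tested), where 56.3% of all genes did. Of the 6, 4 were higher, against 29.2% of all genes, and 2 were lower, against 27.1%; shares of this size are close to the background. The median log2 fold change was 0.40 over the 8 genes and 0.05 over all genes.

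Angpt1, the activating ligand, had 10.9, 12.3 and 12.0 CPM in WT UUO kidneys, against 26.7, 21.0 and 26.0 in contralateral kidneys and 26.5, 26.4 and 32.9 in healthy kidneys. Every WT UUO library lay below every unobstructed library. Angpt1 fell by 1.29 on the log2 scale against healthy (SE 0.15, adjusted p = 3.89e-06) and by 1.07 against contralateral kidneys (SE 0.15, adjusted p = 2.56e-05). Because the RNA was from whole tissue, fewer cells of a type and less RNA per cell cannot be told apart for this or any gene here. An antisense gene, Gm17473, overlaps exons of Angpt1 and the strand setting of the counting is not given.

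Angpt2, the context-dependent antagonist, had 35.8, 26.0 and 28.3 CPM in WT UUO kidneys. It had 9.70, 9.62 and 11.8 CPM in contralateral kidneys and 9.50, 8.68 and 10.2 in healthy kidneys, so that the groups did not overlap. Angpt2 rose by 1.66 ± 0.20 (log2, SE; adjusted p = 5.33e-06) against healthy and by 1.53 ± 0.20 (1.31e-05) against contralateral kidneys. Both angiopoietin calls held in every alternative setting and without any 1 library.

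Set against each other within a library, and per kilobase of exon, the ligands changed places. The ratio of Angpt2 to Angpt1 was 4.62, 2.99 and 3.33 in WT UUO kidneys. It was 0.513, 0.645 and 0.643 in contralateral kidneys and 0.506, 0.464 and 0.438 in healthy kidneys. Angpt1 was thus the more abundant ligand transcript in all 6 unobstructed libraries and Angpt2 in all 3 WT UUO libraries. The mean log2 ratio differed by 2.76 (exact permutation test over 3 and 6 libraries, two-sided, p = 0.0238, the smallest this form of the test allows, and 0.0476 adjusted over 8 ratio tests).

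Of the receptor genes, neither passed the threshold in WT UUO against contralateral kidneys, and Tek, like Angpt1, was lower against healthy kidneys. Tek had 41.7, 34.0 and 44.6 CPM in WT UUO, 42.7, 46.6 and 47.9 in contralateral kidneys and 77.6, 67.9 and 65.2 in healthy kidneys. The healthy libraries stood above all other libraries, while contralateral and WT UUO libraries overlapped. Tek fell by 0.81 on the log2 scale in WT UUO against healthy kidneys (SE 0.15, adjusted p = 0.000366), and the difference from contralateral kidneys was -0.19 ± 0.15 (95% interval -0.51 to 0.14, adjusted p = 0.318).

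Tie1 had 39.3, 23.7 and 34.6 CPM in WT UUO, 26.2, 27.4 and 23.8 in contralateral kidneys and 23.6, 24.6 and 31.5 in healthy kidneys. These ranges overlapped. The differences of 0.29 ± 0.15 against healthy (adjusted p = 0.119) and 0.33 ± 0.15 against contralateral kidneys (0.0783) did not pass the threshold. Without WT UUO replicate 2, the lowest library, they were 0.48 (adjusted p = 0.00547) and 0.52 (0.00354), and without healthy replicate 3 the first was 0.43 (0.0339).

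Endothelial markers were set beside the receptors. In WT UUO against contralateral kidneys, 10 of 12 markers were higher and 1 lower, where 27.5% of all genes were higher and 26% lower. Of 12 markers, 6 were higher and 2 lower in WT UUO against healthy kidneys, where 29.2% of all genes were higher and 27.1% lower. The summed level of the markers was 535 to 740.3 CPM in WT UUO, 458 to 492 in contralateral kidneys and 560.5 to 598.5 in healthy kidneys. Tek was also taken relative to the mean log2 count of the 12 markers in the same library, not per kilobase. It stood at a ratio of 0.854 to 1.10 in WT UUO, 1.53 to 1.74 in contralateral kidneys and 1.96 to 2.38 in healthy kidneys. The log2 difference between WT UUO and the 6 unobstructed kidneys was -0.95 (exact permutation p = 0.0238, the smallest possible; adjusted 0.0476). The Tie1 ratio was 0.691 to 0.852 in WT UUO, 0.865 to 0.968 in contralateral kidneys and 0.722 to 0.948 in healthy kidneys, with a log2 difference of -0.15 (exact permutation p = 0.238; adjusted 0.317).

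**Figure D2:**
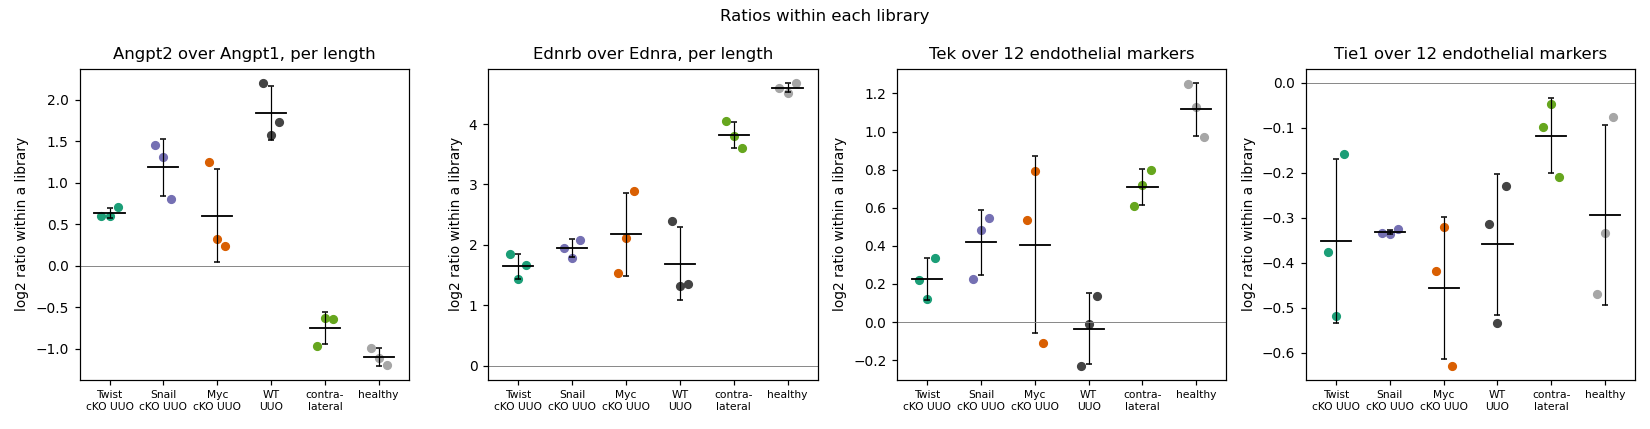
Log2 ratio within each library (points) with the group mean and SD (n = 3) for Angpt2 over Angpt1, Ednrb over Ednra, and Tek and Tie1 over 12 endothelial markers. The axes are cut to the range of each ratio. Where it is in range, the grey line marks equal levels per kilobase for Angpt2 over Angpt1 and Ednrb over Ednra. For Tek and Tie1 it marks equal counts of the gene and the marker mean, not per kilobase. Angpt2 over Angpt1 is above the line in all obstructed and below it in all unobstructed kidneys.

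Edn1 showed the largest fitted change of the 8 genes. It had 25.7, 31.9 and 23.8 CPM in WT UUO kidneys, from 2175, 2554 and 1944 raw counts. It had 1.02, 0.910 and 1.33 CPM in contralateral kidneys and 1.18, 1.17 and 1.69 in healthy kidneys, from 49 to 109 raw counts. Edn1 rose by 4.32 ± 0.26 (log2, SE; adjusted p = 2.02e-08) against healthy and by 4.63 ± 0.26 (2.63e-08) against contralateral kidneys, and both calls held in every setting and without any 1 library.

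Edn1 lies on chromosome 13 (42301476 to 42307990, plus strand, GRCm38, which is mm10). An antisense gene annotated there, Gm47118, overlaps its exons, and its reads cannot be told apart from those of Edn1 without the strand setting. The 250 bases before the Edn1 start (RefSeq, GRCm38.p6, chr13:42301226-42301475, plus strand) are printed because this gene changed most, and those before the first listed Ece1 start (chr4:137861987-137862236, plus strand) because Ece1 was the gene that differed between knockout lines. Capitals mark the only match to a searched motif, and the Edn1 sequence has none.
Edn1: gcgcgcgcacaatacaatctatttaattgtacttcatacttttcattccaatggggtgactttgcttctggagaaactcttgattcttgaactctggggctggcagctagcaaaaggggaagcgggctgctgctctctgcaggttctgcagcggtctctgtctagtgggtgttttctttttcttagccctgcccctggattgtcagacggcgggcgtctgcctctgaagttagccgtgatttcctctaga
Ece1: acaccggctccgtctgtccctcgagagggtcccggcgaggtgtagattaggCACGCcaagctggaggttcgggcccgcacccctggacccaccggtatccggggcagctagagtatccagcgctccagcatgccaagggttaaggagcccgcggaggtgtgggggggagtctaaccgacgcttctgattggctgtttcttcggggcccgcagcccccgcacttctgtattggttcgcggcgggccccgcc

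Motifs were searched on both strands. The core of the hypoxia response element was read as ACGTG or, in its other common spelling, GCGTG. The AP-1 factors were represented by TGANTCA, the GATA factors by AGATAA and the ETS factors by GGAAGT. The forkhead factors of the FOXO class were represented by GTAAACA. Of the E-boxes, the Snail-type box was written CAGGTG, the Twist-type box was written CATATG and the Myc-type box was written CACGTG, which overlaps the first hypoxia spelling. RefSeq windows were at hand for 6 of the 8 genes, all but Angpt1 and Angpt2. The Edn1, Tek and Ednra windows held none of these letters. The Ece1 window above and the Ednrb window each held GCGTG on the minus strand, as 28.2% of 32851 promoters of the same length do. The Tie1 window held GGAAGT, as 19.7% do. GCGTG also occurred in the windows of Ece1 starts 2 and 3 in listed order, while that of start 4 held none of these letters. The window of start 3 also held CACGTG, as 6.02% of promoters do, and with it ACGTG, as 16.6% do. TGANTCA occurred in 6.75%, AGATAA in 9.99%, GTAAACA in 3.17%, CAGGTG in 17.2% and CATATG in 3.46% of promoters. A match to such short letters describes the sequence and is not a binding site.

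Ece1, which completes endothelin-1, was the most abundant of the 8 transcripts per length, at 20.9 ± 2.86 CPM per kilobase in WT UUO kidneys (SD, n = 3). Next there were Edn1 at 12.7 ± 1.98, Ednrb at 9.59 ± 3.30, Tek at 8.52 ± 1.16, Angpt2 at 8.14 ± 1.39 and Tie1 at 6.61 ± 1.63 CPM per kilobase. Ednra at 2.89 ± 0.581 and Angpt1 at 2.25 ± 0.134 CPM per kilobase were lowest. In healthy kidneys Tek led at 14.9 ± 1.38 beside Ece1 at 14.7 ± 0.420, and Edn1 at 0.629 ± 0.139 and Ednra at 0.381 ± 0.0706 were lowest.

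Ece1 had 125, 94.98 and 112 CPM in WT UUO, 92.6, 103 and 88.2 in contralateral kidneys and 80.3, 76.2 and 76.9 in healthy kidneys. It rose by 0.51 ± 0.10 (log2, SE; adjusted p = 0.000555) in WT UUO against healthy kidneys. Against contralateral kidneys, whose libraries overlapped those of WT UUO, the difference was 0.23 ± 0.10 (adjusted p = 0.0711), and it was 0.32 (0.0152) without WT UUO replicate 2 and 0.29 (0.0423) without contralateral replicate 2.

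The endothelin receptors parted. Ednra, the constrictor receptor, had 13.7, 14.4 and 19.5 CPM in WT UUO, 2.31, 2.14 and 2.54 in contralateral kidneys and 1.93, 1.802 and 2.53 in healthy kidneys. All WT UUO libraries lay above all unobstructed ones. Ednra rose by 2.92 ± 0.23 (log2, SE; adjusted p = 1.36e-07) against healthy and by 2.77 ± 0.23 (3.05e-07) against contralateral kidneys. The opposite-strand gene 4933431K23Rik overlaps its exons.

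Markers of the cells that bear this receptor moved with Ednra. Of 10 pericyte and smooth muscle markers, 10 were higher in WT UUO against healthy kidneys, where 29.2% of all genes were higher. The sum of the 10 was 647 to 1102 CPM in WT UUO, 212 to 255 in contralateral kidneys and 179 to 238 in healthy kidneys. The 6 fibroblast markers summed to 2704 to 5549 CPM in WT UUO, 161 to 247 in contralateral kidneys and 179 to 268 in healthy kidneys. The part of these cells in the Ednra result was not tested.

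Ednrb had 55.8, 27.9 and 39.0 CPM in WT UUO, 29.8, 23.4 and 24.2 in contralateral kidneys and 36.9, 32.5 and 50.8 in healthy kidneys. The WT UUO range spanned both other groups. Its difference from healthy kidneys was 0.03 ± 0.23 (log2, SE; 95% interval -0.45 to 0.51, adjusted p = 0.923). Against contralateral kidneys Ednrb rose by 0.66 ± 0.23 (adjusted p = 0.0228), which was 0.37 (0.166) without WT UUO replicate 1, the highest library, and also lost the threshold without contralateral replicate 2 (0.0777) or 3 (0.0685) and with only the groups compared (0.0674).

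Per kilobase, Ednrb exceeded Ednra in all 18 libraries, but by less after obstruction. The ratio of Ednrb to Ednra was 5.25, 2.49 and 2.56 in WT UUO, 16.6, 14.0 and 12.2 in contralateral kidneys and 24.4, 23.0 and 25.7 in healthy kidneys. The mean log2 ratio differed by -2.53 between WT UUO and the 6 unobstructed kidneys (exact permutation p = 0.0238, the smallest possible; adjusted 0.0476).

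In WT UUO against contralateral kidneys, 5 of the 8 genes passed the threshold, where 53.6% of all genes did. Angpt2, Edn1, Ednra and Ednrb were higher, as were 27.5% of all genes, and Angpt1 was lower, as were 26% of all genes. Both comparisons share the WT UUO libraries. Fewer genes passed between contralateral and healthy kidneys. Tek alone of the 8 passed, and was lower, where 2.26% of all genes passed and 0.299% were lower. Ednrb (-0.63 ± 0.23) and Ece1 (0.28 ± 0.10) had an unadjusted edgeR p of 0.0141 and 0.0143, each with an adjusted p of 0.16. Tek fell by 0.62 on the log2 scale (SE 0.15, adjusted p = 0.0487). Of the 12 endothelial markers only 1 passed, Emcn (-0.67 ± 0.13, adjusted p = 0.0223), and the median over the 12 was -0.20. The Tek call was lost without any 1 library other than healthy replicate 3 (adjusted p up to 0.153) and with Cre presence as a covariate (0.26), only the groups compared (0.145), limma voom (0.0678) or no low-count filter (0.0592). All healthy mice were Cre-negative.

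**Figure D3:**
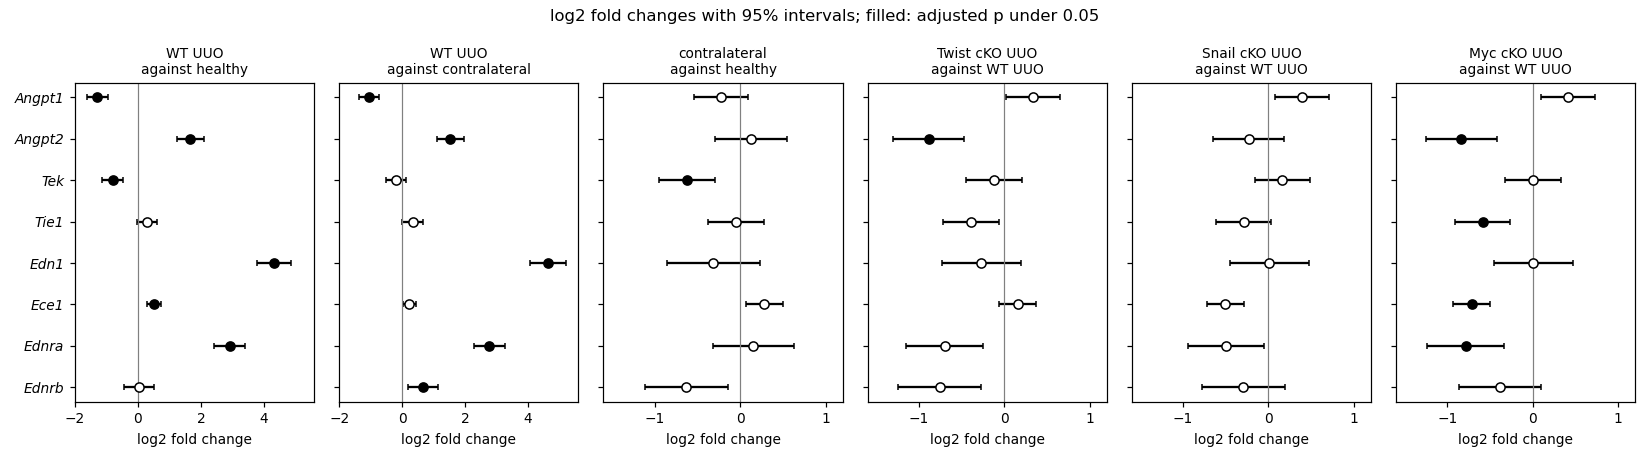
Log2 fold changes with 95% intervals of the 8 genes in 6 comparisons, with the first group of each title over the second; filled points passed an adjusted p of 0.05. The left pair of panels has a wider axis than the other panels, and Edn1 lies at 4.32 and 4.63 there but between -0.27 and 0.01 in the knockout comparisons.

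The knockouts were set against WT UUO to ask what each deletion changed in the obstructed kidney. All 3 comparisons share the same 3 WT UUO libraries. Myc cKO UUO kidneys had 4 of the 8 genes past the threshold, all lower, where 12.2% of all genes passed, 5.31% higher and 6.91% lower. When only the 6 libraries of that comparison were fitted, 0 of 8 passed by edgeR and 5 of all genes did. In Twist cKO UUO kidneys 1 of 8 passed, also lower, where 5.28% of all genes passed, 2.97% higher and 2.31% lower. In Snail cKO UUO kidneys 0 of 8 passed, where 0.299% of all genes did. There 3 had an unadjusted p under 0.05 (Angpt1, Ece1 and Ednra), and DESeq2, limma voom and edgeR with sex as a covariate each called 1 (Ece1).

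Of the ligand genes, only Angpt2 passed the threshold, in Twist and in Myc cKO UUO kidneys. It had 16.5, 18.04 and 14.2 CPM in Twist cKO UUO kidneys and 20.9, 14.4 and 15.2 CPM in those of Myc cKO UUO, all below the WT UUO libraries. In Snail cKO UUO kidneys it had 30.9, 28.1 and 17.6 CPM, which overlapped WT UUO. Angpt2 fell by 0.89 on the log2 scale in Twist cKO UUO (SE 0.20, adjusted p = 0.0262) and by 0.84 in Myc cKO UUO kidneys (SE 0.20, adjusted p = 0.0149), and the difference in Snail cKO UUO kidneys was -0.23 ± 0.19 (95% interval -0.65 to 0.18, adjusted p = 0.625).

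Without WT UUO replicate 1 the Angpt2 differences were -0.73 (adjusted p = 0.134) for Twist and -0.67 (0.0834) for Myc. The Twist call was also lost without any 1 Twist cKO UUO library (0.0639 to 0.0832), and the Myc call without Myc cKO UUO replicate 2 (0.059) or 3 (0.0673). The difference between the Twist and Snail lines themselves was -0.65 ± 0.20 (adjusted p = 0.415).

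Angpt1 had 15.4, 16.8 and 12.3 CPM in Twist cKO UUO kidneys, 15.9, 16.0 and 14.3 in Snail cKO UUO kidneys and 12.4, 16.2 and 18.1 in those of Myc cKO UUO. These levels lay between those of WT UUO and unobstructed kidneys, the lowest Twist library level with the highest WT UUO library. The differences from WT UUO of 0.34 ± 0.15 (adjusted p = 0.188), 0.39 ± 0.15 (0.235) and 0.41 ± 0.15 (0.0853) for Twist, Snail and Myc did not pass the threshold, and for Myc it was 0.55 (0.0221) without Myc cKO UUO replicate 1. The unadjusted edgeR p-values of Angpt1 were 0.0375, 0.0185 and 0.0148, in the same order of lines.

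The ratio of Angpt2 to Angpt1 per kilobase was 1.52, 1.51 and 1.63 in Twist cKO UUO kidneys, 2.74, 2.48 and 1.74 in Snail cKO UUO kidneys and 2.38, 1.25 and 1.18 in those of Myc cKO UUO. All 9 lay below the 3 WT UUO ratios and above all 6 unobstructed ratios. The 9 knockout libraries differed from WT UUO by -1.03 in mean log2 ratio (exact permutation test, two-sided, p = 0.00909, the smallest this form of the test allows, adjusted 0.0476). It stayed between -1.16 and -0.85 without any 1 WT UUO library.

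Of the receptors, Tek had 33.8 to 39.3 CPM in Twist cKO UUO kidneys, 39.3 to 48.8 in Snail cKO UUO kidneys and 30.2 to 49.995 in those of Myc cKO UUO, overlapping WT UUO. Its differences from WT UUO were -0.12, 0.16 and 0.0012 for Twist, Snail and Myc, each with SE 0.15 and adjusted p of 0.668 or more. Tie1 had 20.8, 23.1 and 21.1 CPM in Myc cKO UUO kidneys, below every WT UUO library. It fell by 0.59 there (SE 0.15, adjusted p = 0.024), a call lost without WT UUO replicate 1 (-0.41, 0.137) or 3 (0.0726) and without Myc cKO UUO replicate 1 (0.0512) or 3 (0.0876). In Twist and Snail cKO UUO kidneys Tie1 had 21.7 to 26.8 and 26.4 to 26.6 CPM, with differences of -0.39 ± 0.15 (adjusted p = 0.142) and -0.29 ± 0.15 (0.396). Without WT UUO replicate 2 that of Twist was -0.56 (0.0438).

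The endothelial markers were also compared between the knockouts and WT UUO. Of the 12, 8 were lower in Myc, 4 in Twist and 0 in Snail cKO UUO against WT UUO kidneys. Over all genes, 6.91%, 2.31% and 0.138% were lower, in the same order. Cdh5 was among the lower markers in Myc (-0.95 ± 0.13, adjusted p = 0.00177) and Twist (-0.82 ± 0.13, 0.0124). The marker calls were not checked without WT UUO replicate 1. The summed level of the 12 was 471 to 520 CPM in Twist cKO UUO kidneys, 501 to 525 in Snail cKO UUO kidneys and 436 to 514 in those of Myc cKO UUO, all below the WT UUO libraries. Angpt2 did not follow this sum in every library. Myc cKO UUO replicate 1 had the lowest sum of its line, 436 CPM, and its highest Angpt2, 20.9 CPM. The Tie1 ratio to these markers was 0.647 to 0.896 over the 9 knockout libraries and 0.691 to 0.852 in WT UUO, a log2 difference of -0.02 (exact permutation p = 0.873; adjusted 0.873). For Tek it was 0.38 (exact permutation p = 0.0636; adjusted 0.102), from ratios of 0.927 to 1.74 in the knockouts against 0.854 to 1.10 in WT UUO.

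Edn1 had 21.8, 25.8 and 19.9 CPM in Twist cKO UUO kidneys, 23.8, 38.2 and 19.8 in Snail cKO UUO kidneys and 27.3, 30.8 and 23.6 in those of Myc cKO UUO. All overlapped WT UUO. The differences from WT UUO were -0.27 ± 0.22 (log2, SE; 95% interval -0.73 to 0.20) for Twist, 0.01 ± 0.22 (-0.46 to 0.47) for Snail and 0.01 ± 0.22 (-0.46 to 0.47) for Myc, with adjusted p of 0.509 or more.

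Ednra had 10.5, 9.29 and 9.64 CPM in Twist cKO UUO kidneys, 10.7, 12.98 and 9.9996 in Snail cKO UUO kidneys and 11.5, 10.2 and 5.89 in those of Myc cKO UUO. All 9 lay below WT UUO and above every unobstructed kidney. Ednra fell by 0.78 in Myc cKO UUO kidneys (SE 0.21, adjusted p = 0.0276). The differences of -0.69 ± 0.21 for Twist (adjusted p = 0.0675) and -0.50 ± 0.21 for Snail (0.285) did not pass the threshold. That of Twist passed by DESeq2 (0.0207) and limma voom (0.0438), and by edgeR with sex as a covariate (0.0407), with only the groups compared (0.0473) and with both libraries that stand apart left out (0.0397).

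Myc cKO UUO replicate 3, the lowest for Ednra at 5.89 CPM, was also lowest of the obstructed kidneys for the pericyte (318 CPM) and fibroblast sums (532 CPM). Without it the Ednra difference was -0.55 (adjusted p = 0.0973), and without WT UUO replicate 1, 2 or 3 it was -0.86 (0.0546), -0.83 (0.0509) and -0.59 (0.114). With Cre presence as a covariate it was -0.65 (0.0676). Of the 10 pericyte and smooth muscle markers, 3 were lower in Twist, 0 in Snail and 5 in Myc cKO UUO against WT UUO kidneys. Over all genes, 2.31%, 0.138% and 6.91% were lower, in the same order. These marker calls were not checked without the libraries that stand apart. The sum of the 10 was 447 to 485 CPM in Twist, 555 to 643 in Snail and 318 to 768 in Myc cKO UUO kidneys. The fibroblast sum was 1268 to 1476, 1751 to 2606 and 532 to 2271 CPM. The part of these cells in the lower Ednra was not tested.

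Ednrb had 29.3, 19.5 and 23.8 CPM in Twist cKO UUO kidneys, 32.1, 34.9 and 33.1 in Snail cKO UUO kidneys and 25.8, 34.4 and 34.1 in those of Myc cKO UUO, overlapping WT UUO in each group. Its differences were -0.76 ± 0.23 (adjusted p = 0.0651), -0.29 ± 0.23 (0.592) and -0.38 ± 0.23 (0.297) for Twist, Snail and Myc, and that of Twist was called by DESeq2 (0.0167), by edgeR with sex as a covariate (0.0208) and without WT UUO replicate 2 (-0.96, 0.0445). The Ednrb to Ednra ratio of 2.69 to 7.41 in the 9 knockout libraries overlapped that of WT UUO (log2 difference 0.23, exact permutation p = 0.5; adjusted 0.571). Without WT UUO replicate 1 that difference was 0.58 (exact permutation p = 0.0364).

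Ece1 was the 1 gene of the 8 to differ between knockout lines. It had 129, 125 and 116 CPM in Twist cKO UUO kidneys, 74.0, 74.8 and 84.6 in Snail cKO UUO kidneys and 68.3, 72.6 and 61.7 in those of Myc cKO UUO. The Snail and Myc libraries lay below every WT UUO and contralateral library, while the Twist libraries overlapped WT UUO. Ece1 fell by 0.71 in Myc cKO UUO against WT UUO (SE 0.10, adjusted p = 0.00186), a call that held without any 1 of the 6 libraries and was at 0.0787 with only the groups compared. The difference was -0.51 ± 0.10 in Snail cKO UUO (adjusted p = 0.0523, and 0.0306 without WT UUO replicate 2) and 0.16 ± 0.10 in Twist cKO UUO kidneys (0.385).

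In the direct comparisons Ece1 was higher by 0.66 ± 0.10 in Twist against Snail cKO UUO (adjusted p = 0.011), 1 of 8 genes, where 0.171% of all genes passed, 0.0855% higher and 0.0855% lower. It fell by 0.87 in Myc against Twist cKO UUO (SE 0.10, adjusted p = 0.00142), again 1 of 8, where 2.99% of all genes passed and 2.55% were lower; with only the groups compared its adjusted p was 0.0502. In Myc against Snail cKO UUO 0 of 8 passed by edgeR, DESeq2 and limma voom, where 2.45% of all genes did by edgeR (0.523% higher, 1.92% lower), and 1, Angpt2, had an unadjusted p under 0.05. The Twist against Snail call was lost without Twist cKO UUO replicate 1 (0.0737) or 2 (0.0597) or Snail cKO UUO replicate 1 (0.0794) or 2 (0.0655). The groups with low Ece1 among the obstructed kidneys are those whose strain label lacks 129sv, so the deleted gene and the strain cannot be told apart. Sex, read from Ddx3y and Xist counts, also differed in make-up. Replicates 1 and 3 of Snail and of Myc cKO UUO were male-like, and only replicate 2 of each other group. With sex as a covariate, 1 of 8 genes passed in Twist against Snail and 1 of 8 in Myc against Twist cKO UUO. The healthy kidneys, with 129sv, lay at 76.2 to 80.3 CPM, within the range of Snail cKO UUO and above every Myc cKO UUO library.

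**Figure D4:**
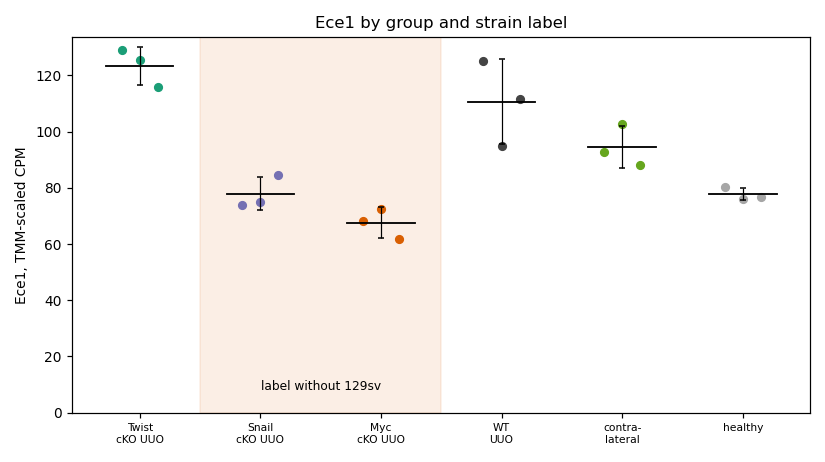
Ece1 level in every library (points) in TMM-scaled CPM, with the group mean and SD (n = 3); shading marks the groups whose strain label lacks 129sv. The Snail and Myc cKO UUO libraries sit between 61.7 and 84.6 CPM and the other obstructed libraries between 94.98 and 129 CPM.

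Averaged over the 3 knockouts against WT UUO, 4 of the 8 genes were lower, where 10.1% of all genes passed, 4.38% higher and 5.73% lower. Angpt2 fell by 0.65 (SE 0.15, adjusted p = 0.0187), Ednra by 0.66 (SE 0.17, 0.025), Tie1 by 0.42 (SE 0.12, 0.0412) and Ece1 by 0.35 (SE 0.08, 0.0168). For Ece1 this mean hides a change of sign: 0.16 in Twist, -0.51 in Snail and -0.71 in Myc cKO UUO kidneys. The Snail and Myc lines also carry a different strain label. Without WT UUO replicate 1, 0 of the 8 passed by edgeR and the count over all genes was 64, against 2129 with it. Without WT UUO replicate 3, 1 of the 8 and 1542 of all genes passed. The Tie1 call was lost without any 1 library other than WT UUO replicate 2 or Myc cKO UUO replicate 1 (adjusted p up to 0.366), and with Cre presence (0.0729), limma voom (0.0525) or only the groups compared (0.0583). The Ednra call was also lost without WT UUO replicate 2 (0.0562) and with Cre presence (0.0786).

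Against contralateral kidneys, each knockout still had 5 of the 8 genes changed, where 42.9% of all genes passed for Twist (21.5% higher, 21.4% lower), 46.4% for Snail (23.7% higher, 22.8% lower) and 44.5% for Myc (22% higher, 22.5% lower). These comparisons share the contralateral libraries. In all 3, Edn1, Ednra and Angpt2 were higher and Angpt1 was lower. Edn1 rose by 4.37 ± 0.26 in Twist, 4.64 ± 0.26 in Snail and 4.64 ± 0.26 in Myc cKO UUO kidneys. Ednra rose by 2.07 ± 0.22, 2.27 ± 0.22 and 1.98 ± 0.22, and Angpt2 by 0.65 ± 0.20, 1.30 ± 0.20 and 0.70 ± 0.20, in the same order of lines. Angpt1 differed by -0.73 ± 0.15, -0.68 ± 0.15 and -0.66 ± 0.15. Ece1 went both ways: it rose by 0.38 ± 0.10 (adjusted p = 0.00655) in Twist and fell by 0.28 (SE 0.10, 0.0339) in Snail and by 0.48 (SE 0.10, 0.00131) in Myc cKO UUO kidneys. The Snail call for Ece1 was lost without contralateral replicate 1 (adjusted p = 0.058) or 2 (0.139), without Snail cKO UUO replicate 1 (0.126) or 2 (0.115) and without the low-count filter (0.069). That for Angpt2 was lost in Twist without contralateral replicate 1 (0.0533) or 2 (0.0567) or Twist cKO UUO replicate 2 (0.0561), and in Myc without Myc cKO UUO replicate 1 (0.51, 0.0608).

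Other genes of the angiopoietin and Tie pathway were followed in a list of 11. In WT UUO against healthy kidneys 7 were higher and 2 lower, where 29.2% of all genes were higher and 27.1% lower. The median log2 was 1.001 beside 0.05 for all genes. Akt1, a kinase downstream of Tie2, rose by 1.09 ± 0.07, Tnip2, an adaptor that binds Tie2 and restrains NF-kappaB, by 1.12 ± 0.09, Svep1, a matrix protein that binds Tie1, by 1.72 ± 0.18, and Itgb1, an integrin subunit, by 1.0009 ± 0.15. In WT UUO against contralateral kidneys 8 were higher and 1 lower, where 27.5% of all genes were higher and 26% lower. Svep1 (1.92 ± 0.19) and Itgb1 (1.24 ± 0.15) were among the 8. The lower one was Foxo1, the transcription factor that Tie2 signalling inactivates and that drives Angpt2 (-1.04 ± 0.15, adjusted p = 3.99e-05). Its difference from healthy kidneys was -0.90 ± 0.15 (adjusted p = 0.000133), a value named here after it was seen.

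In the knockouts against WT UUO, 1 of these 11 was lower in Twist (Itgb1, -0.56 ± 0.14, adjusted p = 0.0387), 0 passed in Snail, and 2 were lower in Myc cKO UUO kidneys (Akt1, -0.53 ± 0.07, adjusted p = 0.00151; Svep1, -0.62 ± 0.18, 0.0362). Over all genes, 2.31% were lower in Twist and 6.91% in Myc cKO UUO kidneys, and 0.299% passed in Snail. The calls of these pathway genes were not checked without the libraries that stand apart. The medians of the 11 were -0.25, -0.24 and -0.28, with -0.0074, -0.0046 and 0.0012 for all genes. Between contralateral and healthy kidneys 1, Akt1, was higher (0.37 ± 0.07, adjusted p = 0.0139), where 1.96% of all genes were higher.

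Of 20 other endothelin pathway genes 19 were tested; Edn2, another endothelin, was listed at 0 to 0.0164 CPM and did not pass the filter. In WT UUO against healthy kidneys 10 were higher and 3 lower, where 29.2% of all genes were higher and 27.1% lower. The median log2 of the 19 was 0.31. Plcb1, a phospholipase downstream of Gq, fell by 1.25 (SE 0.18), and Mme, the peptidase neprilysin, which degrades endothelin-1 and is abundant in the proximal tubule, by 1.27 (SE 0.19). In WT UUO against contralateral kidneys 9 were higher and 5 lower, where 27.5% of all genes were higher and 26% lower. Rgs4, which limits signalling of such receptors, rose by 2.52 ± 0.32 there and Rock2, a kinase of smooth muscle contraction, by 0.76 ± 0.09. In contralateral against healthy kidneys Furin, which makes the first cut of the endothelin precursor, rose by 0.69 ± 0.16 (adjusted p = 0.0362) and Gna11, a G protein subunit that couples these receptors, by 0.29 ± 0.06 (0.0311).

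In Twist cKO UUO against WT UUO 1 of the 19 passed (Myl9, -1.02 ± 0.27, adjusted p = 0.0436), and in Snail 0 did. Over all genes, 5.28% passed in Twist, 0.299% in Snail and 12.2% in Myc cKO UUO kidneys. In Myc cKO UUO kidneys Mme rose by 0.81 ± 0.19 (adjusted p = 0.0132), while Gna11 fell by 0.27 (SE 0.06, 0.0137), Plcb3 by 0.52 (SE 0.14, 0.0236) and the receptor kinase gene Adrbk1 by 0.42 (SE 0.10, 0.0127). These knockout calls, too, were not checked without the libraries that stand apart.

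For each of the 8 genes, the pair of genes with the most similar pattern was taken by the smallest root mean square difference of centred log2 CPM over the 18 libraries, among 12787 candidates. For Angpt1 these were Rfk (0.15) and Rbbp9 (0.16), for Angpt2 Sgce (0.20) and Kctd10 (0.23), and for Tek Immp1l (0.18) and Rasgrp3 (0.20). Tie1 lay nearest Esam (0.14), one of the endothelial markers, and She (0.16). For Edn1 they were Vcam1 (0.33), an adhesion molecule of activated endothelium, and Dpysl3 (0.44), the widest gaps of the 8. For Ece1 they were Myo1c (0.20) and Agap3 (0.21), for Ednra Il1rl2 (0.17) and Marcks (0.20), and for Ednrb Cd200 (0.25) and Esam (0.26).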

How the data were processed

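Raw counts per gene of 18 whole-kidney RNA-seq libraries were used, as deposited by the authors. Per the labels, TRIzol was used to extract RNA from frozen kidney tissue, and a stranded whole-transcriptome kit with paired-end sequencing followed. The submitters' processing notes name bcl2fastq 1.8.4, HTSeq, DESeq2 and the build mm10; the sources used here do not give the aligner, the annotation or whether counting used strand. A further 6 columns matched no sample and entered no step.

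Counts were tested with edgeR 4.0.16 in R 4.3.3: filterByExpr (21050 of 31787 genes), trimmed mean of M-values (TMM) scaling, and 1 robust quasi-likelihood fit over 18 libraries (a group-means design, leaving 12 residual degrees of freedom). P-values were two-sided and Benjamini-Hochberg adjusted over all genes, and a gene was called at an adjusted p under 0.05. Total counts ranged from 52.6 to 91.3 M. Levels per kilobase use the merged exon length of GENCODE M21. Ratios within a library had 0.5 counts added and were compared by exact permutation tests, adjusted over 8 tests. Their two-sided p counts the smaller tail for both sides, which sets the smallest p possible. Alternatives were DESeq2 size factors, no low-count filter, no mitochondrially encoded genes, Cre presence or sex (read from Ddx3y and Xist counts) as a covariate, limma voom (3.58.1), DESeq2 (1.42.0), only the groups compared, 5 added counts for ratios, and each library left out in turn. Leaving out WT UUO replicate 1 together with Myc cKO UUO replicate 3 was chosen after seeing the data. The fit was tested on simulated data.

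The text names the 8 genes in each main comparison, other pathway genes from the 6 with the smallest p in a comparison among those past the threshold, and the 2 genes most like each of the 8. The 8 genes, the pathway and marker lists and the motifs were chosen with earlier results of these data known.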

Additional observations from a re-analysis of the deposited data

Results flagged for a closer look

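Ece1, the endothelin-converting enzyme gene, differed between knockout lines in the obstructed kidney by the test of the difference itself. It was higher by 0.66 on the log2 scale in Twist than in Snail cKO UUO kidneys (edgeR adjusted p = 0.011; higher in 3 of 3 libraries), and its difference between Myc and Twist cKO UUO kidneys was -0.87 (edgeR adjusted p = 0.00142; lower in 3 of 3 libraries). The first call was lost without 1 of 4 libraries (adjusted p up to 0.0794), and the Myc against Twist call was at an adjusted p of 0.0502 when only the groups compared were fitted. The lines also differ in the strain label, and the part of strain was not tested.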

How the results depend on the processing

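No paired analysis was run because the labels number no replicates and do not tie kidneys to animals. In record order, the contralateral and WT UUO libraries matched in Cre presence and in sex read from counts. That order was not used as a pairing. The counts of called genes in WT UUO against healthy kidneys (6 to 7 without 1 library) and in each knockout against contralateral kidneys (4 to 5) stayed within 1.5 times of those reported under every setting. The knockout comparisons with WT UUO did not. For Twist cKO UUO, where 1 of 8 genes was called, the count was 3 with sex as a covariate, 2 by limma voom, 3 by DESeq2, 2 with only the groups compared, and 0 to 3 without 1 library. For Snail cKO UUO it was 1 with sex as a covariate, by limma voom and by DESeq2, and 0 to 1 without 1 library, against 0 reported. For Myc cKO UUO, with 4 reported, it was 0 with only the groups compared, 1 with both libraries that stand apart left out, and 1 to 4 without 1 library. For the mean of the knockouts, with 4 reported, it was 2 with Cre presence as a covariate, 1 with both libraries left out, and 0 to 5 without 1 library. For contralateral against healthy it was 0 without the low-count filter, with Cre presence, by limma voom, with only the groups compared, and 0 to 1 without 1 library. For WT UUO against contralateral it was 4 to 7 without 1 library, which is within 1.5 times of the 5 reported. For Ece1, as the 1 member called in Myc against Twist cKO UUO, it was 0 with only the groups compared, and in Twist against Snail 0 to 1 without 1 library. The cause was not tested.

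Leaving out 1 WT UUO library put the 3 WT UUO ratio tests out of reach of the threshold, by construction of the two-sided test used. Their log2 differences ranged from 2.58 to 2.89 for Angpt2 over Angpt1, from -2.88 to -2.34 for Ednrb over Ednra and from -1.03 to -0.85 for Tek over endothelial markers. For the knockouts against WT UUO they ranged from 0.046 to 0.58 for Ednrb over Ednra, from 0.29 to 0.47 for Tek and from -0.11 to 0.044 for Tie1 over endothelial markers, whose sign therefore turned.

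Differences near 0 also turned sign. Ednrb in WT UUO against healthy was -0.051 with Cre presence, -0.0074 by limma voom, -0.26 with both libraries left out, and -0.26 to 0.25 without 1 library. Edn1 in Snail cKO UUO against WT UUO was -0.041 by limma voom, -0.028 with both libraries left out, and -0.31 to 0.20 without 1 library. Tek in Myc cKO UUO against WT UUO was -0.0015 without the low-count filter, -0.017 by limma voom, and -0.17 to 0.17 without 1 library. Without 1 library, Tie1 in contralateral against healthy ranged from -0.12 to 0.10, Ednrb in Snail cKO UUO against WT UUO from -0.50 to 0.0053 and Edn1 in Myc cKO UUO against WT UUO from -0.074 to 0.16. For the mean of the knockouts Tek ranged from -0.075 to 0.11 and Edn1 from -0.18 to 0.064.

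Over all genes, counts past the threshold moved by over 1.5 times. For contralateral against healthy the count was 476, and 75 with Cre presence, 237 by limma voom, 1296 by DESeq2, 3 with only the groups compared and 718 with sex as a covariate. For Twist cKO UUO against WT UUO it was 1111, and 1831 with sex, 2464 by DESeq2, 733 without the low-count filter and 331 with both libraries left out. For Snail cKO UUO it was 63, and 145 with sex, 181 by limma voom, 773 by DESeq2, 11 with only the groups compared and 25 with both libraries left out. For Myc cKO UUO it was 2572, and 5 with only the groups compared and 287 with both libraries left out. For the mean of the knockouts it was 2129, and 233 with both libraries left out. Between the lines, DESeq2 and the fit of only the groups compared gave 152 and 56 for Twist against Snail (36 reported), 1600 and 15 for Myc against Twist (630) and 1389 and 16 for Myc against Snail (515, and 220 with both libraries left out). Without 1 library the counts ranged from 44 to 977 for contralateral against healthy, from 13 to 1057 for Twist cKO UUO, from 15 to 141 for Snail cKO UUO and from 797 to 3025 for Myc cKO UUO against WT UUO, and from 64 to 2735 for the mean of the knockouts. The lowest counts for Twist, Myc and the mean were without WT UUO replicate 1. Between the lines they ranged from 14 to 25 for Twist against Snail, from 194 to 515 for Myc against Twist and from 57 to 691 for Myc against Snail.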
